A study of Mus musculus with 70 samples.

Results

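Transcripts of 9 genes of the epidermal growth factor (EGF) family were followed in mouse renal cancer cells over 6 rounds of growth in mice. They comprised the ligands Ereg, Areg, Hbegf, Tgfa, Btc and Epgn and the receptors Egfr, Erbb2 and Erbb3. The genes were chosen by symbol with earlier results of these data known, and the study had already selected Ereg on these samples. Each gene was measured by the non-control array probes whose transcript carries its symbol, 11 probes of the 9 genes among 21154 named genes on the array. The cells were RENCA, a renal adenocarcinoma line from BALB/c mice, made to express GFP, and all groups shared this line and this label. P0 was the line before injection into mice (2 RNA samples). P1 to P6 were recovered after each round in wild type female BALB/c mice, by 3 routes. KPT cells were injected under the kidney capsule and recovered from the kidney tumour (5, 2, 2, 3, 5 and 5 RNA samples from P1 to P6). T-LM cells were injected into the tail vein and recovered from lung metastases (5, 2, 3, 4, 6 and 4). K-LM cells were injected under the kidney capsule and recovered from lung metastases (1, 1, 5, 3, 4 and 3). Per the study's methods the recovered tissue was digested and the cells were kept in culture before RNA was taken, while the labels describe homogenised tumour or lung metastases. The study reports that culture went on until cells without GFP were no longer found. It also describes expression changes in P6 that resemble an epithelial-mesenchymal transition. Neither source says which samples of a passage share a parent sample, so the p-values measure the spread between samples as they were deposited. Each of the 65 RNA samples was hybridised to a single-colour array, and both P0 samples and 3 KPT P6 samples were hybridised a second time, giving 70 arrays. A level is the log2 signal of a probe minus the 75th percentile of its array over probes that were well above background on all arrays, so a level of 0 equals that percentile and each unit is a doubling. Levels were compared between samples and never between genes, since each probe has its own brightness.

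EGF-family ligands are made as membrane-bound precursors that metalloproteases such as ADAM17 release from the cell surface. The released ligand binds EGFR, and HB-EGF, betacellulin and epiregulin also bind ERBB4, after which the receptors pair with each other. ERBB2 has no known ligand and acts as the preferred partner of the others, and ERBB3 depends on such a partner because its own kinase is nearly inactive. Receptor pairs signal through RAS and ERK, whose activity induces both feedback inhibitors and, in many cells, Hbegf, Ereg and Areg themselves. In the kidney, EGFR signalling is known for its part in tubular repair and in renal carcinoma.

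The promoters of members that differed in detection show what sequence lies upstream of them. Epgn, Ereg, Areg and Btc lie close together on chromosome 5 in the RefSeq annotation of GRCm38.p6. The 250 bases before the gene start were available from RefSeq for 6 of the 9 members. Shown here are Egfr and Erbb2, receptors measured in most samples, and Areg, a ligand near background throughout. All 3 lie on the plus strand of GRCm38.p6 and are written 5′ to 3′. Capitals mark matches, on either strand, to 4 motifs: the AP-1 site TGACTCA, the cyclic AMP response element TGACGTCA, the SP1 box GGGCGG and the TATA box TATAAA.
Egfr, chr11:16751953-16752202: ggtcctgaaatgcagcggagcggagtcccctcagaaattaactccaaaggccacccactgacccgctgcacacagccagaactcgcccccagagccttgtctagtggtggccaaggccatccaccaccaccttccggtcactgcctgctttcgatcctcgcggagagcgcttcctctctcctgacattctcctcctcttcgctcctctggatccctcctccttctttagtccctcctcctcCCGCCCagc
Erbb2, chr11:98412234-98412483: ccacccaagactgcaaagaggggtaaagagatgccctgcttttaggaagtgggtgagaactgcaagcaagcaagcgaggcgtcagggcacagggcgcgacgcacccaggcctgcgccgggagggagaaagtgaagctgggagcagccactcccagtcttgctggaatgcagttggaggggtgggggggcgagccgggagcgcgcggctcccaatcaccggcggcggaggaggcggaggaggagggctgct
Areg, chr5:91139349-91139598: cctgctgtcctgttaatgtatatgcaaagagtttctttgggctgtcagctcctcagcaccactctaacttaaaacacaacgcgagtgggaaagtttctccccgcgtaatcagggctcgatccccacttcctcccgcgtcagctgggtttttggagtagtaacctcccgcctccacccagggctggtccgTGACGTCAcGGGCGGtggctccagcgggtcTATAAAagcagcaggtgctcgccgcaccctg
The Areg window held 1 cyclic AMP response element, 1 SP1 box and 1 TATA box. The Egfr window held 1 SP1 box, read on the minus strand as CCGCCC, and the Erbb2 window held no match. Of the windows not shown, Tgfa held 2 SP1 boxes, Epgn held 1 TATA box and Btc held none. Over 32851 promoter windows of the same length, 4.46% held the AP-1 letters, 1.55% the cyclic AMP response element, 32.7% the SP1 box and 12.4% the TATA box. The share of G and C was 60.8% for Egfr, 66% for Erbb2 and 57.2% for Areg, beside a median of 52.4% over all windows. A match of letters is a description of the window and does not show that a factor binds there.

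Of the 9 members, 4 were well above background, by the scanner software's own call, on 2 or more of the 70 arrays. Hbegf was above background on 70 arrays, Erbb2 on 69, Egfr on 63 and Ereg on 37. Btc, Epgn and Erbb3 each passed on 1 array, and Areg and Tgfa passed on none. Only the 4 members that passed on 2 or more arrays were tested, and no count below stands for all 9. Per RNA sample, Hbegf passed in 65 of 65, Erbb2 in 64, Egfr in 58 and Ereg in 37.

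The arrays carried features of the cells and slides that touch these results. The share of probes that passed background ran from 25.1% to 55.1% over the arrays. Of the markers of renal epithelial tumour cells, Pax8, Krt8 and Krt18 were above background in 65 of 65 samples, whereas Cdh1 passed in 7, Epcam in 5 and Pax2 in 0. The kidney tubule markers Umod, Slc34a1 and Lrp2 passed in 0 samples. Of the fibroblast markers, 6 of 8 (Pdgfra, Pdgfrb, Dcn, Lum, Thy1, Col1a1, Col1a2, Col3a1) passed in 33 or more samples. Their mean level was lowest in P0 (-7.87 to -7.86), where Pdgfra, Pdgfrb, Lum and Thy1 passed in no sample. In bulk RNA, fewer cells of a type and less RNA per cell cannot be told apart. One slide, called the late slide here, held the 3 K-LM P6 arrays together with the 5 repeat arrays. It was read with another software version than the other 8 slides. A P1 sample labelled LOT1, counted as T-LM on the strength of its source and experiment labels, stood apart from the other T-LM P1 samples in fibroblast markers (mean level -6.7, against -2.45 to -0.98). The T-LM P1 changes of Ereg and Egfr are therefore given with and without it, and other T-LM P1 tests include it.

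Hbegf, the precursor of heparin-binding EGF-like growth factor, rose from P0 to P6 in all 3 routes, and no other tested member was called in all of them. Its levels in the 2 P0 samples were -4.25 and -3.72. In KPT P6 they were -2.85, -2.39, -2.42, -2.59 and -2.42, in T-LM P6 -2.72, -2.46, -2.22 and -2.74, and in K-LM P6 -2.28, -2.52 and -2.06. Every P6 sample lay above both P0 samples, and the 3 routes overlapped each other at P6. From P0 to P6, Hbegf rose by 1.55 ± 0.29 (SE) on the log2 scale in KPT (2.93-fold, limma adjusted p = 0.00256), by 1.63 ± 0.23 in T-LM (3.09-fold, adjusted p = 5.82e-05) and by 1.56 ± 0.29 in K-LM (2.96-fold, adjusted p = 0.000576). The 3 changes share the P0 samples. Of the 4 members tested, KPT called 1, T-LM called 2 and K-LM called 2, where 3.88%, 7.31% and 5.6% of all probes tested were called. Without P0 replicate 1 the Hbegf rise was 1.14 in KPT (adjusted p = 0.128) and 1.34 in K-LM (adjusted p = 0.0208), and neither passed the threshold of 0.01. This sample had the lowest Hbegf level of all, and its second array read 0.65 higher than its first. With slide as a fixed term the rise was 1.63 in KPT (adjusted p = 0.135) and 1.48 in T-LM (adjusted p = 0.0192). Within a slide that held both groups, P6 exceeded P0 by 1.32 and 2.15 in KPT, while T-LM differed by 1.03 and K-LM by 1.51.

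A rise in Hbegf was already present after the first round. In KPT P1 the levels were -2.38, -2.33, -1.43, -0.81 and -1.09, and in T-LM P1 -1.89, -2.94, -3, -2.04 and, in LOT1, -2.91. The P0 to P1 change was 2.55 ± 0.38 in KPT (5.87-fold, limma adjusted p = 0.000285) and 1.61 ± 0.28 in T-LM (3.04-fold, adjusted p = 0.0013). Here 1 of the 4 tested members was called in each route, beside 4.41% of probes in KPT and 2.58% in T-LM. Without P0 replicate 1 the changes were 2.14 (adjusted p = 0.0206) and 1.2 (adjusted p = 0.0816). Between P3 and P6 Hbegf differed by 0.04, 0.25 and -0.41 in KPT, T-LM and K-LM, with adjusted p-values of 0.961, 0.467 and 0.284. The group means ran highest at P5 in T-LM (-1.59 ± 0.14 (SD, n = 6)) and K-LM (-1.21 ± 0.09 (SD, n = 4)). In KPT the highest mean was that of P1, at -1.61 ± 0.72 (SD, n = 5), and that of P5 was -1.83 ± 0.34 (SD, n = 5).

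Ereg, which encodes epiregulin, was low or undetected in P0 and in KPT P6 and was well above background in every T-LM P6 and K-LM P6 sample. Its P0 levels were -8.89 and -8.31, both below background. In KPT P6 the levels were -8.86, -8.27, -7.68, -8.26 and -8.37, none of them above background. In T-LM P6 they were -4, -3.07, -4.38 and -4.83, and in K-LM P6 -5.68, -5.83 and -3.15. No lung-derived P6 sample overlapped P0 or KPT P6. From P0 to P6 the fitted rise was 3.92 ± 0.92 (SE) in T-LM (limma adjusted p = 0.0069) and 4.1 ± 0.87 in K-LM (adjusted p = 0.0022), and with low levels raised to a common floor of -6.64 it was 2.57 and 1.75 (adjusted p = 0.0333 and 0.132). Since P0 was below background, the size of the change in group means is a bound: Ereg was at least 5.86-fold higher in T-LM P6 and at least 3.33-fold higher in K-LM P6. These bounds carry no sampling error. The K-LM bound leans on replicate 3, at -3.15, as replicates 1 and 2 (-5.68 and -5.83) lay near the floor. In KPT both ends were below background and no fold is given (adjusted p = 0.971). The T-LM call was lost without either P0 sample (adjusted p = 0.0926 and 0.0498 without replicates 1 and 2) and without T-LM P6 replicate 1, 2 or 3 (0.016, 0.0218 and 0.0129). The K-LM call was lost without P0 replicate 1 or 2 (0.0538 and 0.0247) and without K-LM P6 replicate 3 (0.0252).

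The course of Ereg between these ends was not even. Ereg was above background in 0 of 2 samples at P0, 7 of 11 at P1, 0 of 5 at P2, 2 of 10 at P3, 9 of 10 at P4, 12 of 15 at P5 and 7 of 12 at P6. By route it passed in 6 of 22 KPT, 19 of 24 T-LM and 12 of 17 K-LM samples. The first-round samples already reached high levels: in KPT P1 the values were -8.86, -8.71, -5.79, -2.35 and -2.41, and the single K-LM P1 sample read -1.82. In T-LM P1 they were -3.94, -2.25, -2.65 and -2.59, while LOT1 read -8.69. KPT P1 thus held samples at both ends of the range. The P0 to P1 change was not called in KPT (2.37 ± 1.7, limma adjusted p = 0.39) or in T-LM (3.97 ± 1.25, adjusted p = 0.0486). Since P0 and part of the P1 samples in both routes were below background, no fold is given. With low levels raised to the floor of -6.64 the changes were 1.87 in KPT (adjusted p = 0.3) and 3.03 in T-LM (adjusted p = 0.0442). Without LOT1 the T-LM change, not floored, was 5.13 with an adjusted p of 0.00042.

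**Figure D1:**
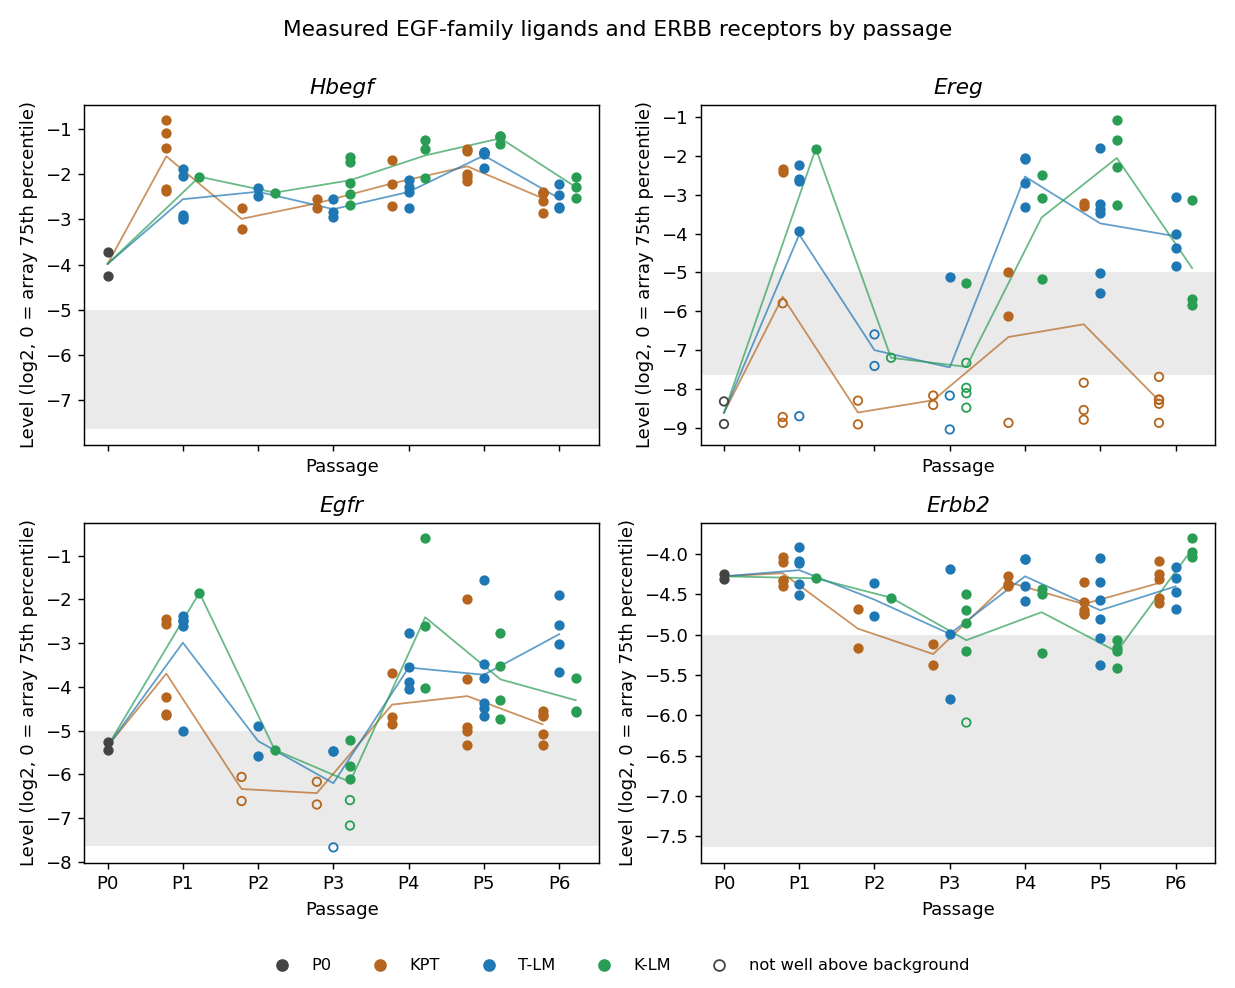
Levels of Hbegf, Ereg, Egfr and Erbb2 (log2, 0 = the array's 75th percentile) by passage from P0 to P6, with each point an RNA sample, open where not well above background, lines joining the group means of a route and a grey band for the lowest level well above background per array (-7.64 to -5, median -6.64). Ereg was below background in all 5 samples at P2 and parted at P6, with the 5 KPT samples at -8.86 to -7.68 and the 7 lung-derived samples at -5.83 to -3.07.

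At P2 every Ereg value was below background, between -8.9 and -6.59. At P3 the T-LM samples read -8.16, -9.03 and -5.12 and the K-LM samples -7.32, -8.47, -5.26, -7.96 and -8.1, so 1 sample of each stood above the rest. The T-LM P4 samples then read -3.31, -2.71, -2.08 and -2.05 and the K-LM P5 samples -1.6, -3.26, -1.09 and -2.29. From P3 to P6 Ereg rose by 3.37 ± 0.81 in T-LM (limma adjusted p = 0.00872) and by 3.31 ± 0.8 in K-LM (adjusted p = 0.00799), beside 0.13 ± 1.34 in KPT (adjusted p = 0.969). These sizes depend on P3 values below background, since 1 of 3 T-LM and 1 of 5 K-LM samples passed at P3, and with low levels raised to the floor of -6.64 they were 2.07 (adjusted p = 0.051) and 1.48 (adjusted p = 0.098). The 2 calls were close to the threshold and were lost in 15 of 19 alternatives for T-LM and 15 of 21 for K-LM. On the 3 slides that held a T-LM P3 and a T-LM P6 sample, P6 was higher by 5.09, 4.65 and 0.29. Of the 4 members tested, P3 to P6 called 0 in KPT, 2 in T-LM (Ereg and Egfr) and 1 in K-LM (Ereg), where 0.715%, 7% and 5.87% of all probes were called. In KPT 4729 of all probes had an unadjusted p under 0.05.

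The samples recovered from KPT tumours at P5 held Ereg at opposite ends, at -3.3, -3.21, -8.53, -8.78 and -7.83. The 2 samples above background, replicates 1 and 2, also had the highest fibroblast marker means of the group (-0.48 and -2.11, against -5.53 to -4.85 in the other samples). Their leukocyte marker means were the highest as well (-1.77 and -1.18, against -5.11 to -4.9). The part of these cell types in the Ereg values was not tested.

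At P6 Ereg differed between routes, and Hbegf did not pass the test. Ereg was higher in T-LM than in KPT by 3.99 ± 0.49 (SE; limma adjusted p = 1.05e-05, at least 6.82-fold) and higher in K-LM than in KPT by 3.95 ± 0.57 (adjusted p = 7.09e-05, at least 3.87-fold). The K-LM fold again leans on K-LM P6 replicate 3, at -3.15. The lung-derived routes differed from each other by -0.04 ± 0.67 (K-LM minus T-LM, adjusted p = 0.976), with a 95% interval of -1.45 to 1.37, which leaves room for a difference of more than a doubling in either direction. The late-slide term in the P6 fits rests on repeat arrays of P0 and KPT P6, where Ereg was below background. Without that term the group means were -4.07 in T-LM P6 and -4.89 in K-LM P6. With low levels raised to the floor, K-LM minus T-LM was -0.82 ± 0.57 (limma adjusted p = 0.341). Of the 4 members tested at P6, 2 were called between T-LM and KPT (Ereg and Egfr), 1 between K-LM and KPT (Ereg) and 0 between K-LM and T-LM. The share of all probes called was 11.5%, 16.1% and 11.9%. Between K-LM and T-LM, 7598 of all probes had an unadjusted p under 0.05. Hbegf differed by 0.1, 0.11 and 0.01 in the same 3 comparisons (adjusted p = 0.769, 0.729 and 0.991), with 95% intervals of -0.26 to 0.46, -0.32 to 0.53 and -0.49 to 0.5. All K-LM P6 arrays lay on the late slide, where 3 KPT P6 repeat arrays gave a within-slide difference in Ereg of 3.81. A single slide held both a KPT P6 and a T-LM P6 sample, which differed in Ereg by 3.55. With slide as a fixed term the T-LM difference was 3.46 (adjusted p = 0.0327). With levels below the median floor of -6.64 raised to it, the K-LM difference was 1.75 (adjusted p = 0.0147).

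Cell type markers also differed between routes at P6. The mean of each list given here was highest in T-LM, and the leukocyte mean was lower in K-LM than in KPT. The mean level of the 8 fibroblast markers at P6 was -4.66 in KPT (-5.36 to -4.34), -2.24 in T-LM (-3.07 to -1.46) and -3.86 in K-LM (-4.44 to -3.02). Of the 8, 6 were called higher in T-LM than in KPT, and 2 were called higher in K-LM than in KPT. For this and the next lists, these comparisons called 11.5% (T-LM) and 16.1% (K-LM) of all probes. Of the 8, 6 were above background in every sample of KPT P6, 7 in T-LM P6 and 6 in K-LM P6. The 12 leukocyte markers averaged -5.42 (-5.72 to -5.2) in KPT P6, -3.72 (-4.25 to -3.34) in T-LM P6 and -6.17 (-6.3 to -6.06) in K-LM P6. Of the 10 that were tested against KPT, 6 were called higher and 1 lower in T-LM, and 1 higher and 3 lower in K-LM. In K-LM P6, 5 of the 12 (Cd68, Csf1r, Itgam, Cd14 and Lyz2) were above background in every sample and the other 7, Ptprc among them, in none. The 6 lung epithelium markers (Sftpa1, Sftpb, Sftpc, Scgb1a1, Nkx2-1 and Ager) averaged -8.07 (-8.33 to -7.8) in KPT P6, -5.76 (-6.37 to -4.96) in T-LM P6 and -7.92 (-7.94 to -7.89) in K-LM P6. Of the 4 that were tested, 3 (Sftpb, Sftpc and Ager) were called higher in T-LM than in KPT, and 1 (Scgb1a1) was called higher in K-LM than in KPT. In K-LM P6, Scgb1a1 was above background in every sample and the other 5 in none. The part of these cell types in the Ereg difference was not tested.

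One round earlier, at P5, none of the 4 members was called between routes. Ereg read -5.52 to -1.81 with a median of -3.43 in the 6 T-LM P5 samples. Its difference from KPT was 2.59 ± 1.04 in T-LM (limma adjusted p = 0.109) and 4.27 ± 1.15 in K-LM (adjusted p = 0.02), and K-LM exceeded T-LM by 1.68 ± 1.11 (adjusted p = 0.35). Hbegf was higher in K-LM than in KPT by 0.62 ± 0.16 (adjusted p = 0.0168), and all 4 K-LM samples lay above all 5 KPT samples. Without KPT P5 replicate 1 or replicate 2, both Ereg and Hbegf were called between K-LM and KPT. The share of all probes called at P5 was 5.42% for T-LM against KPT, 7.39% for K-LM against KPT and 3.41% for K-LM against T-LM. At an unadjusted p under 0.05 there were 5754, 6444 and 5476 probes.

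Areg, Tgfa, Btc and Epgn, the remaining ligands, stayed near the background of the arrays in every route and passage. Areg, which encodes amphiregulin, ranged from -9.56 to -6.51 over 70 arrays and Tgfa, which encodes transforming growth factor alpha, from -9.64 to -7.11, without passing on any. Btc, the gene of betacellulin, passed once, on the first array of P0 replicate 1 at -5.33, and the repeat array of the same RNA read -9.95. Epgn, the gene of epigen, passed once, in T-LM P4 replicate 3 at -6.71. None of these values allows a level to be ranked, because order below background carries no information. Of these genes close to Ereg on chromosome 5, Areg was thus above background in none of the 37 samples where Ereg was.

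**Figure D2:**
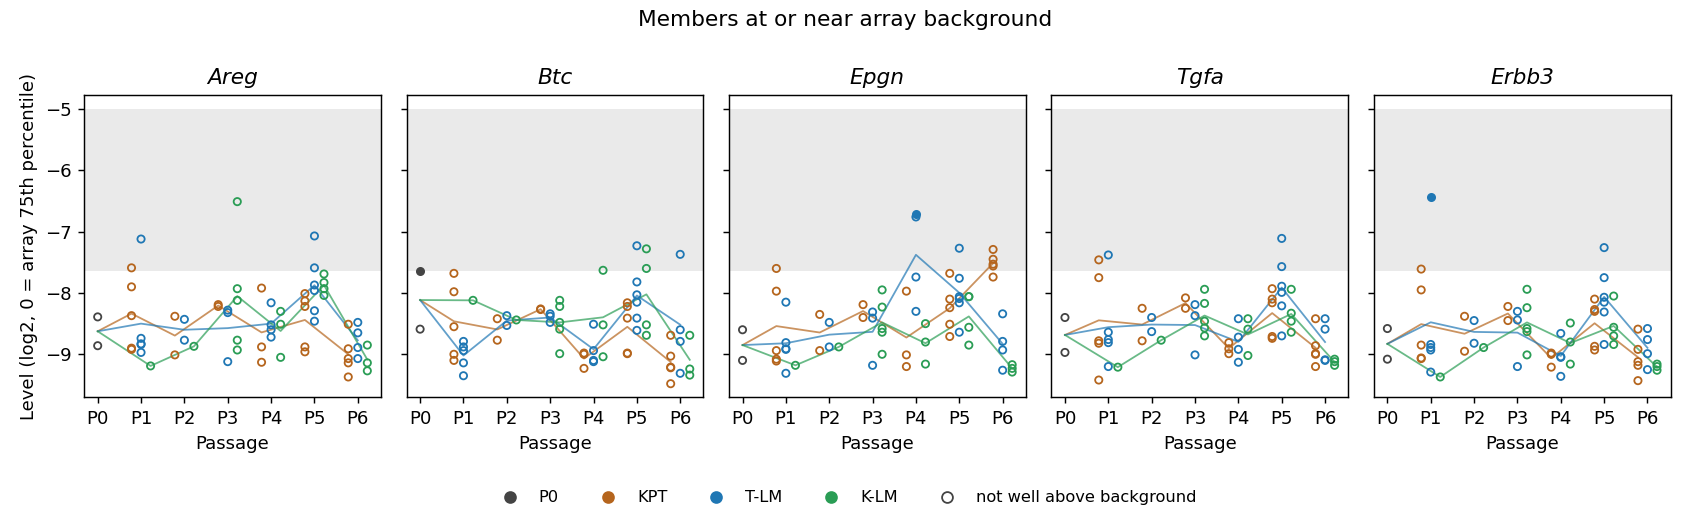
Levels of Areg, Btc, Epgn, Tgfa and Erbb3 (log2, 0 = the array's 75th percentile) by passage, drawn as in the plot of the 4 detected members, with open points for RNA samples not well above background on any array. Of the 65 RNA samples, 1 passed for each of Btc, Epgn and Erbb3 and 0 passed for Areg and Tgfa.

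Egfr, the receptor shared by all 6 ligands, was least often above background at P2 and P3 and was higher in T-LM than in KPT at P6. It was above background in 3 of 5 samples at P2, 5 of 10 at P3 and in all samples of the other passages. Its P0 levels were -5.44 and -5.27. In KPT P6 they were -5.34, -5.08, -4.67, -4.64 and -4.55, in T-LM P6 -2.59, -1.91, -3.02 and -3.67, and in K-LM P6 -4.57, -4.55 and -3.8. The T-LM samples lay above all others, while K-LM and KPT overlapped. Egfr was higher in T-LM than in KPT at P6 by 2.02 ± 0.28 (SE; 4.05-fold, limma adjusted p = 3.52e-05). K-LM exceeded KPT by 0.73 ± 0.32 (adjusted p = 0.103) and lay 1.29 below T-LM (K-LM minus T-LM -1.29 ± 0.38, adjusted p = 0.0207), and neither passed the threshold. On the slide that held both, the T-LM P6 sample exceeded the KPT P6 sample by 1.46. With slide as a fixed term the difference was 1.6 (adjusted p = 0.0244). The fibroblast marker means given beside Ereg rank the routes in the same order at P6, with T-LM highest and KPT lowest. The lung epithelium and leukocyte marker means were also highest in T-LM. Their part in the Egfr difference was not tested.

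From P3 to P6, Egfr rose by 3.41 ± 0.65 in T-LM (10.6-fold, limma adjusted p = 0.00144). The T-LM P3 samples read -7.67, -5.47 and -5.47, and without replicate 2, the lowest, the change was 2.67 (adjusted p = 0.0162). In K-LM the change was 2.06 ± 0.59 (adjusted p = 0.0188) and in KPT 1.63 ± 0.63 (adjusted p = 0.135). By the probe used here, KPT P3 was below background and KPT P6 was at least 2.51-fold higher. The other Egfr probes, given below, did not reach that size in KPT. With the RNA quality index as a covariate the T-LM change was 2.98 (adjusted p = 0.0136). From P0 to P6 the changes were 0.51 in KPT (adjusted p = 0.756), 2.5 ± 0.74 in T-LM (adjusted p = 0.0293) and 1.15 in K-LM (adjusted p = 0.318). At P1 the 5 KPT samples lay between -4.65 and -2.44 and the T-LM samples read -2.6, -2.48, -2.49, -2.38 and, in LOT1, -5.01. The P0 to P1 change was 1.6 ± 0.71 in KPT (adjusted p = 0.145) and 2.31 ± 0.76 in T-LM (adjusted p = 0.058), and without LOT1 the latter was 2.81 (adjusted p = 0.00711).

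Egfr was measured by 3 probes. The brightest, to transcript NM_207655, was used above, and the other 2, to NM_007912, were above background on 44 and 40 of the 70 arrays. Between T-LM and KPT at P6 they differed by 1.47 and 1.33 (limma adjusted p = 7.77e-05 and 8.03e-05), so all 3 probes were called. From P0 to P6 in T-LM the other probes rose by 2.35 (adjusted p = 0.00919) and 2.06 (adjusted p = 0.0214), so 1 of the 3 was called. From P3 to P6 in T-LM they rose by 1.73 (adjusted p = 0.0275) and 1.68 (adjusted p = 0.0321) and were not called, so that call rests on the brightest probe. Over the same step they changed by -0.115 and 0.392 in KPT and by 0.442 and 0.668 in K-LM. The group mean of each was lowest at P0, at -7.25 and -7.15, with 1 of 4 arrays above background. That of the brightest probe was lowest in KPT P3, at -6.43.

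**Figure D3:**
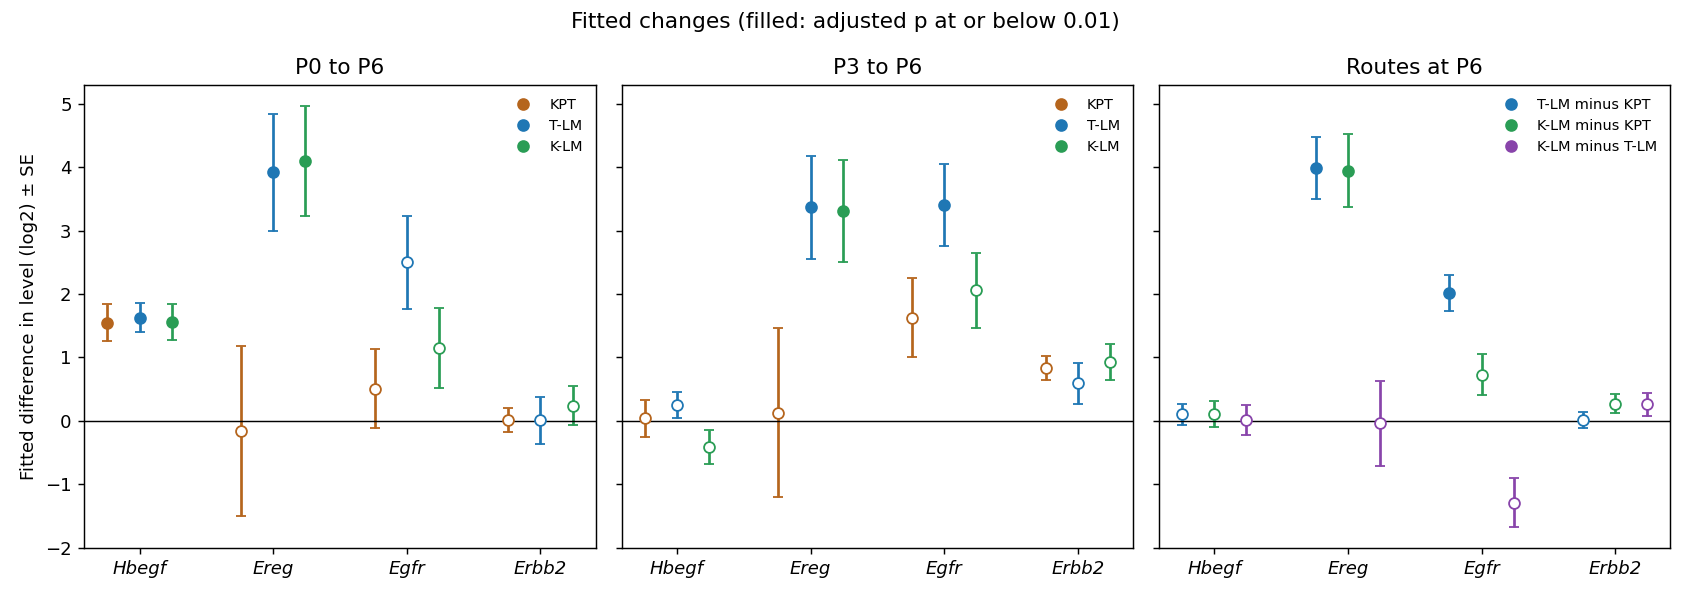
Fitted log2 changes of Hbegf, Ereg, Egfr and Erbb2 from P0 to P6 and P3 to P6 in each route and between routes at P6, with bars for the standard error and filled points for an adjusted p of 0.01 or less. Hbegf was called from P0 to P6 in all 3 routes, at 1.55 to 1.63, and Ereg only in changes or differences that involve a lung-derived route.

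Erbb2, the receptor without a known ligand, was not called in any of the 14 comparisons. Its levels over the 70 arrays lay between -6.09 and -3.8, the narrowest range of the 4 detected members. P0 read -4.24 and -4.31, and the P6 means were -4.36 ± 0.22 (SD, n = 5) in KPT, -4.4 ± 0.23 (SD, n = 4) in T-LM and -3.94 ± 0.12 (SD, n = 3) in K-LM. From P0 to P6 it differed by 0.01, 0.01 and 0.24 in KPT, T-LM and K-LM, with 95% intervals of -0.39 to 0.41, -0.76 to 0.78 and -0.39 to 0.87. The P3 means were lower, at -5.24 ± 0.19 (SD, n = 2), -4.99 ± 0.81 (SD, n = 3) and -5.07 ± 0.63 (SD, n = 5). The P3 to P6 changes of 0.84 ± 0.19 in KPT (limma adjusted p = 0.0177), 0.59 ± 0.32 in T-LM (adjusted p = 0.249) and 0.93 ± 0.28 in K-LM (adjusted p = 0.0256) did not pass. Across the 65 samples Erbb2 followed an index used here for RNA quality, the mean level of 19 long mRNAs minus that of 81 ribosomal protein mRNAs (Pearson r = 0.772, and 0.65 after group means were subtracted). Whether the index measures RNA quality was not tested. That index was -8.66, -8.18 and -8.57 at P3 and -6.88, -7.28 and -7.01 at P6 in KPT, T-LM and K-LM. With the index as a covariate the P3 to P6 changes of Erbb2 were 0.5 for KPT, 0.02 for T-LM and 0.3 for K-LM (limma adjusted p = 0.88, 0.977 and 0.548), each smaller than without it. Since the index itself differed between P3 and P6, its part and that of passage cannot be told apart. Erbb3, whose product pairs with ERBB2, passed on 1 array, T-LM P1 replicate 2 at -6.44, the array with the largest share of probes above background.

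The rest of the pathway was read from lists of ligands, ligand release factors, receptor inhibitors, relay proteins and ERK-responsive genes. Beside the counts that follow, the share of all probes called from P0 to P6 was 3.88% for KPT, 7.31% for T-LM and 5.6% for K-LM. At P6 it was 11.5% for T-LM against KPT, 16.1% for K-LM against KPT and 11.9% for K-LM against T-LM. Of the other ligands and receptor (Egf, Nrg1, Nrg2, Nrg3, Nrg4 and Erbb4), only Nrg1, which encodes neuregulin 1, a ligand of ERBB3 and ERBB4, was tested. It was above background in 65 samples at -2.11 to 0.79 and was called in 0 comparisons. Egf, Nrg2, Nrg3 and Erbb4 passed in 0 samples and Nrg4 in 1.

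Of 6 genes of ligand release, all tested, 0 were called from P0 to P6 in any route. Rhbdf2, which encodes an inactive rhomboid protein that escorts ADAM17 to the cell surface, was higher in K-LM P6 than in KPT P6 by 0.91 (limma adjusted p = 0.0097) and than in T-LM P6 by 1.19 (adjusted p = 0.00593). It rose by 1.45 from P3 to P6 in K-LM (adjusted p = 0.00498). Rhbdf1 was lower in K-LM than in KPT at P5, by -0.86 (adjusted p = 0.00286). Adam10 was above background in 65 samples and Adam17 in 55.

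Of 9 receptor inhibitors and turnover factors, all tested, 2 rose from P0 to P6 in K-LM, where 5.6% of all probes were called, and 0 in KPT or T-LM. They were Cblb, a ubiquitin ligase that acts on receptor tyrosine kinases (2.46, limma adjusted p = 7.32e-05), and Errfi1, an inducible inhibitor of the EGFR kinase (1.45, adjusted p = 0.00338). Both were also higher in K-LM than in KPT at P6, a comparison that called 16.1% of all probes, Cblb by 2.11 (adjusted p = 1.22e-05) and Errfi1 by 0.82 (adjusted p = 0.000833). Cblb was higher in K-LM than in T-LM by 2.26 (adjusted p = 3.95e-05). At P1, Errfi1 had risen by 1.35 in KPT (adjusted p = 0.00548) and by 1.67 in T-LM (adjusted p = 0.00263), and Cblb by 2.47 in T-LM (adjusted p = 0.00162), beside 4.41% and 2.58% of all probes called in these routes. From P3 to P6 in K-LM, which called 5.87% of all probes, Cblb rose by 3.12 (adjusted p = 3.8e-06) and Cbl, a related ligase, by 1.52 (adjusted p = 0.00372). At P5, K-LM differed from KPT in 3 of the 9, beside 7.39% of all probes, with Lrig1, which promotes receptor degradation, higher by 2.52 (adjusted p = 0.00773) and Lrig3 and Cbl lower (-0.80 and -1.24, adjusted p = 0.00387 and 0.00568).

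Of 16 relay genes, 14 were tested and few were called. From P0 to P6 it was 0 in KPT and K-LM and 1 in T-LM, where Nras, a RAS GTPase, rose by 0.96 (limma adjusted p = 0.00218). The 1 of 14 in T-LM is close to the 7.31% called over all probes. At P6 Nras was lower in K-LM than in KPT (-0.56, adjusted p = 0.00613) and than in T-LM (-0.77, adjusted p = 0.00265), and it fell by 0.89 from P3 to P6 in K-LM (adjusted p = 0.00626). At P1, Map2k1, the gene of the kinase MEK1, had risen by 1.37 in KPT (adjusted p = 0.00302) and by 1.33 in T-LM (adjusted p = 0.00664), and Braf by 1.38 in KPT (adjusted p = 0.00372).

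Of 10 transcripts that ERK signalling is known to induce, KPT had 4 called higher from P0 to P6, T-LM 6 and K-LM 4, and 0 were called lower, where 3.88%, 7.31% and 5.6% of all probes were called. Their median changes were 1.7, 2.09 and 1.23, beside -0.01, 0.001 and 0.001 over all probes tested. Over the same steps 2, 6 and 5 of the 8 fibroblast markers were called higher, with median changes of 4.37, 5.04 and 5.41, as were 0, 4 and 0 of the 12 leukocyte markers, and their part in these changes was not tested. In KPT the smallest adjusted p-values belonged to Ccnd1, the gene of cyclin D1 (2.38, limma adjusted p = 0.000192), Etv4, an ETS transcription factor (2.16, adjusted p = 0.000238), and Plaur, the urokinase receptor (1.76, adjusted p = 0.000468). In T-LM they belonged to Ier3 (2.06, adjusted p = 6.09e-06), Etv4 (2.19, adjusted p = 0.000182) and Etv5 (2.91, adjusted p = 9e-04). In K-LM they belonged to Ier3 (2.00, adjusted p = 8.51e-05), Ccnd1 (2.98, adjusted p = 0.000553) and Etv5 (2.63, adjusted p = 0.00152). Feedback genes of the same pathway moved alike in part, as 5 of 9 were tested and 2, 1 and 1 were called higher in KPT, T-LM and K-LM. Dusp6, an ERK phosphatase, was called in all 3, at 2.53 in KPT (adjusted p = 0.00179), 2.83 in T-LM (adjusted p = 0.000182) and 1.73 in K-LM (adjusted p = 0.00339), and Dusp4 in KPT alone, at 1.44 (adjusted p = 0.00697).

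At P1, 5 of the 10 ERK-responsive genes were called higher in KPT and 2 in T-LM, beside 4.41% and 2.58% of all probes. Ccnd1, Etv4 and Ier3 led in KPT (2.60, 2.39 and 2.41, limma adjusted p = 0.000353, 0.000787 and 0.00151), and the 2 in T-LM were Ier3 (1.93, adjusted p = 6.54e-05) and Fosl1 (2.34, adjusted p = 0.000785). Dusp4 was the feedback gene called in KPT P1 (2.48, adjusted p = 3.59e-05). From P3 to P6 the list held 3 called in T-LM (Etv4 1.90, Etv5 2.47 and Ier3 0.93, adjusted p = 0.000293, 0.00153 and 0.00591), 0 in KPT and 1 in K-LM, where Plaur fell (-0.94, adjusted p = 0.0085), beside 7%, 0.715% and 5.87% of all probes. The feedback genes Spry1 and Dusp6 rose in T-LM from P3 to P6 (3.02 and 1.59, adjusted p = 0.00366 and 0.00992).

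Between routes at P6, Ier3 was higher than in KPT in both lung-derived routes, by 1.29 in T-LM (limma adjusted p = 3.24e-06) and by 1.24 in K-LM (adjusted p = 3.18e-05). In T-LM it was the only one of the 10 called. In K-LM 2 genes were called higher (Ier3 and Fosl1) and 2 lower (Plaur, -1.04, adjusted p = 0.00137, and Egr1). Against T-LM, Egr1 and Plaur were lower in K-LM (-1.49 and -0.99, adjusted p = 0.00173 and 0.00817). At P5, Fos, Fosl1 and Ier3 were called higher than in KPT in both T-LM (2.40, 1.83 and 1.77, adjusted p = 1.11e-05, 0.000914 and 0.000894) and K-LM (2.02, 1.84 and 1.51, adjusted p = 3.96e-05, 0.000983 and 0.00286).

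Across the 65 RNA samples the members differed in how much they varied. The SD was 2.6 for Ereg, 1.46 for Egfr, 0.65 for Hbegf and 0.47 for Erbb2. Of 10560 genes above background in 33 or more samples, whose median SD was 0.42, the share with a smaller SD was 99.6% for Ereg, 97.7% for Egfr, 83.1% for Hbegf and 59.4% for Erbb2. The Ereg values include 28 samples below background, at -9.03 to -5.79, whose order carries no information.

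The genes most like each member over the 65 samples were found among the same 10560 genes by Pearson correlation, as a description of samples that share arrays, passages and cell sources. For Ereg they were Il6, the gene of interleukin 6 (r = 0.973), Ccnd2, the gene of cyclin D2 (r = 0.945), and Cyp1b1 (r = 0.944). After group means were subtracted, the same values were 0.969, 0.95 and 0.931, so the likeness also held among samples of a group. Both sets of values include the samples with Ereg below background. For Egfr they were Col4a2, a basement membrane collagen (r = 0.935), Lamb1, a laminin chain (r = 0.92), and Thbs1, the gene of thrombospondin 1 (r = 0.918). For Hbegf they were Dusp4 (r = 0.793), the hyaluronan receptor Cd44 (r = 0.785) and Socs1 (r = 0.777), with 0.576, 0.657 and 0.689 after subtraction. For Erbb2 they were Pik3r4 (r = 0.911), Ints9 (r = 0.9) and Zfp710 (r = 0.899).

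Ereg and Egfr varied together (r = 0.787, rank correlation 0.785, 65 samples), and within routes r was 0.807 for KPT, 0.783 for T-LM and 0.818 for K-LM. Egfr averaged -3.38 ± 1.12 (SD) in the 37 samples with Ereg above background and -5.49 ± 0.86 (SD) in the 28 others. Among the 37 samples r was 0.583, and among the 28 others, where Ereg has no reliable order, it was 0.059. The mean of the 8 fibroblast markers followed both genes. With Ereg r was 0.865 over all samples and 0.633 among the 37, and with Egfr it was 0.918 and 0.915. Hbegf followed the markers less closely (r = 0.516), and its correlation with Ereg was 0.545 over all samples, at 0.884 for KPT, 0.27 for T-LM and 0.643 for K-LM. The part of fibroblast RNA in the levels of Ereg and Egfr was not tested.

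**Figure D4:**
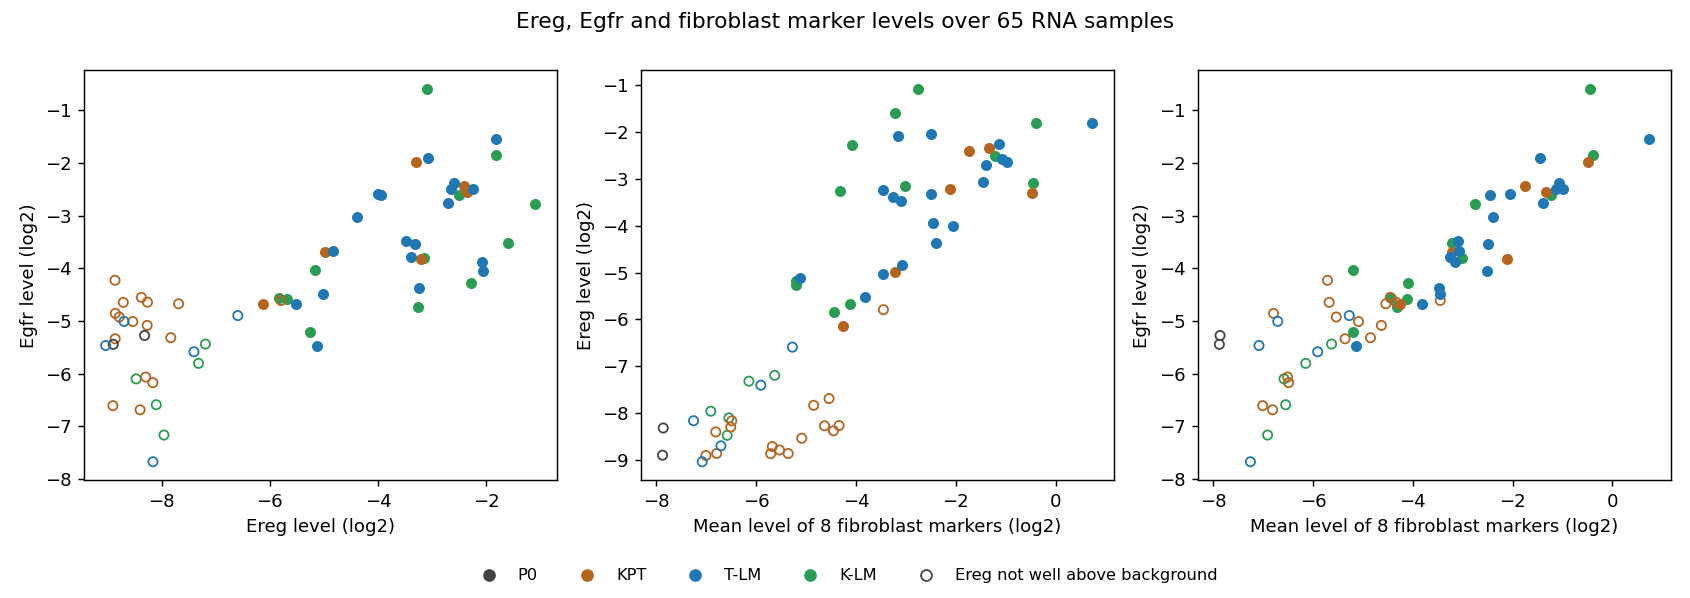
Ereg level against Egfr level, and the mean level of 8 fibroblast markers against Ereg and against Egfr, all in log2 units relative to the array's 75th percentile, with each point 1 of 65 RNA samples. Ereg samples fell into 28 not above background and 37 above it, with marker means of -7.87 to -3.45 and -5.21 to 0.73. Egfr followed the marker mean over all samples (r = 0.918) and less closely among those 28 (r = 0.6). The P0 samples had the lowest marker means but not the lowest Egfr levels.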

How the data were processed

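Total RNA of 65 samples was hybridised, labelled with Cy5, to 70 single-colour Agilent arrays on 9 slides. The deposited scanner files give the signal intensity of each spot, namely a median intensity, its background and an intensity already background-corrected by the software the authors scanned with (the processed signal). The deposited series values are log2 values, which lay within 0.105 of the quantile-normalised log2 of the median intensity, and they were used as an alternative. Per the file headers, 62 arrays were read with software 11.0.1.1 and 8, on the late slide, with 12.0.2.2. Slide, software and any separate scan of that slide cannot be told apart.

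Of 62976 spots, 3671 controls were left out and 59305 were averaged into 55681 probes, of which 28026 matched a gene symbol by RefSeq transcript (GRCm38.p6, names only) and 27655 did not. A member was read from its brightest probe. The 75th percentile was taken over 11287 probes well above background on all arrays. A probe entered a fit if 2 or more of that fit's arrays called it well above background. Each comparison was fitted over all tested probes with limma 3.58.1 (R 4.3.3), 2-sided, with Benjamini-Hochberg adjustment and the methods' threshold of 0.01. A route's samples from P0 and P2 to P6 were fitted together, with P1 added for P0 to P1. K-LM and P6 fits held the repeat arrays, a late-slide term and a random block for RNA sample (statmod 1.5.0). Other values came from first arrays only, while group levels average the arrays of an RNA sample. "At least" folds raise the dim group to the lowest signal well above background on each array. They compare group means and carry no sampling error. The fits were tested on simulated data. The number of arrays limits the precision, and arrays give no counting depth.

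The members, gene lists and tests were chosen with earlier results of these data known. The study had selected Ereg among T-LM genes on these samples, so its T-LM course is not independent evidence. Named genes were the members, up to 3 called genes of each pathway list with the smallest adjusted p, and the 3 genes most correlated with each member above background in 33 or more samples. Genes named beyond these were chosen after their values were seen. Alternatives were another percentile, normexp with quantile normalisation (on median intensity, offset 50, as the files used hold no mean signal), the value table, other filters, a floor, other sample sets, slide, replicate block, RNA quality index and single samples left out.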

Additional observations from a re-analysis of the deposited data

Results flagged for a closer look

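In 36 tests (the 4 tested members in each of 9 groups of 4 to 10 samples), 3 values, which belonged to 2 samples, lay far from the rest of their group by Dixon's 95% criterion, which chance alone would flag in about 1 test in 20. The LOT1 sample was the lowest of T-LM P1 for Ereg, at a level of -8.69, and for Egfr, at -5.01. Replicate 2 was the lowest of T-LM P5 for Hbegf, at -1.87, in a group whose other samples lay between -1.56 and -1.52.

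The change from the shared P0 differed between routes at P6 in 3 tests of the difference itself. Ereg differed by 3.99 on the log2 scale between T-LM and KPT and by 3.95 between K-LM and KPT, and Egfr by 2.02 between T-LM and KPT.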

How the results depend on the processing

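Of 1161 values of single members under alternatives, 987 kept their direction and their side of the threshold, 65 lost and 24 gained a call, 85 values without a call changed sign and 0 called values changed sign. The numbers below are members called. Between P0 and P6, KPT (1) gave 2 without a filter, where Btc was added at -2.29 (limma adjusted p = 0.00454), and 0 with slide as a fixed term. T-LM (2) gave 1 with a filter on all arrays, floored levels, all arrays in one model or the replicate block and 0 with slide fixed. K-LM (2) gave 1 with the filter on all arrays, floored levels, all arrays in one model, the replicate block or first arrays only. Between P3 and P6, KPT (0) gave 1 when fitted on the compared groups only. T-LM (2) gave 1 with the percentile over all probes, normexp, the value table, floored levels, the compared groups only or all arrays in one model and 0 with the filter on all arrays, slide fixed, the replicate block or the RNA quality index. K-LM (1) gave 2 on the compared groups only and 0 with normexp, the value table, no filter, the filter on all arrays, floored levels, all arrays in one model, slide as a random block, the replicate block or the RNA quality index. From P0 to P1, KPT (1) gave 0 on the compared groups only, and T-LM (1) gave 0 on the compared groups only or with slide fixed and 2 with the replicate block. At P6, T-LM against KPT (2) gave 1 with the filter on all arrays and 0 with all arrays in one model or slide fixed. K-LM against KPT (1) gave 0 with the filter on all arrays, floored levels or all arrays in one model, and K-LM against T-LM (0) gave 1 with normexp, the value table or first arrays only. At P5, K-LM against KPT (0) gave 1 with the percentile over all probes, normexp, the value table, all arrays in one model or the replicate block. The filter on all arrays leaves out Ereg by construction, and for the other settings the cause was not tested. In the model of all arrays, the T-LM against KPT difference at P6 was 3.99 for Ereg (adjusted p = 0.0244) and 2.01 for Egfr (adjusted p = 0.0359). Without a filter Epgn was also called between T-LM and KPT at P6 (-1.52, adjusted p = 0.000989), although all its values there were below background.

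With single samples left out, P0 to P6 gave 0 to 1 members in KPT, 1 to 2 in T-LM and 0 to 2 in K-LM, and P3 to P6 gave 0 in KPT, 0 to 2 in T-LM and 0 to 3 in K-LM. P0 to P1 gave 0 to 1 in KPT and 0 to 3 in T-LM. At P6 the range was 2 for T-LM against KPT, 1 for K-LM against KPT and 0 to 1 for K-LM against T-LM. At P5 it was 0, 0 to 2 and 0 in the same order. Replicate numbers were not used to pair samples in the main fits. Same-numbered samples correlated at -0.385 to 0.771 in their deviations from group means. With 1 to 5 such pairs per comparison, these values cannot show whether the numbers pair the samples. The replicate block gave Ereg changes of 4.26 (P0 to P6, T-LM, adjusted p = 0.0126), 3.62 (P0 to P6, K-LM, 0.0139), 3.44 (P3 to P6, T-LM, 0.0288), 3.26 (P3 to P6, K-LM, 0.0213), 5.27 (P0 to P1, T-LM, 0.00311) and 4.65 (K-LM against KPT at P5, 0.00626) and an Egfr change of 3.27 (P3 to P6, T-LM, 0.0146), and it changed no other call. What limits Ereg is its signal over background: 28 of 65 samples give only an upper bound.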
